A study of Mus musculus with 6 samples.

Results

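The p53 response and cell-cycle arrest were followed through 10 genes in whole kidneys of C57BL/6 mice aged 2 months, fed either the standard diet or an adenine-enriched one. They were chosen by symbol as a list of 10 from a table of 40993 genes, with earlier results of these data known. Each symbol had 1 entry: Trp53, Mdm2, Cdkn1a, Cdkn1b, Cdkn2a, Cdkn2b, Ccng1, Btg2, Bbc3 and Gdf15. Each diet had 3 samples, called standard 1 to 3 and adenine 1 to 3. The labels name no transgene or deletion, give neither a dose of adenine nor a length of feeding, and leave unsaid whether each sample is 1 animal. P-values therefore measure the spread between these samples, which may be technical. Values for a diet are given below in the order of samples 1 to 3.

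The transcription factor p53, encoded by Trp53, is held at a low level by the ubiquitin ligase that Mdm2 encodes, and is stabilised when DNA damage or other stress frees it from Mdm2. It then raises the transcription of genes that stop the cell cycle, such as Cdkn1a (p21), and of genes that start apoptosis, such as Bbc3 (PUMA), and it raises Mdm2 itself, which closes a feedback loop. Cdkn1b (p27), Cdkn2b (p15) and the p16 product of Cdkn2a block cyclin-dependent kinases by routes that do not need p53, while p19ARF, the other product of Cdkn2a, acts on Mdm2. In the kidney p21 is known to be induced in injured tubules.

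The 250 bases before each annotated start of the 10 genes were searched for the p53 decamer, the 10-letter unit that p53 binds in pairs and that reads alike on both strands. Only exact matches to the pattern RRRCWWGYYY were taken, where R is A or G, W is A or T and Y is C or T. The stretches that held it are shown since 2 of their genes rose on the adenine-enriched diet while 2 did not pass the test. RefSeq (GRCm38.p6) gave 15 such windows for the 10 genes, some of them overlapping, and windows of 4 genes held a decamer, which is in capitals below. The stretches are written 5′ to 3′ on the strand of the gene and hold no exon annotated in GENCODE M21.
Cdkn1a, chr17:29090869-29090968, plus strand, 110 to 11 bases before the upstream start: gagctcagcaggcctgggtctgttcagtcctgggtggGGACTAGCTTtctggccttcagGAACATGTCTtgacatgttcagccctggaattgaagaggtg
Trp53, chr11:69580259-69580358, plus strand, 100 to 1 bases before the start: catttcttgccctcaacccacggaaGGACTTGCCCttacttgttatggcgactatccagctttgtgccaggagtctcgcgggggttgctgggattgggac
Mdm2, chr10:117710889-117710988, minus strand, 230 to 131 bases before the start: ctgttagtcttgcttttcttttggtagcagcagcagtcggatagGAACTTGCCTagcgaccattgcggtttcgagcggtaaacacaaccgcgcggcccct
Ccng1, chr11:40755417-40755516, minus strand, 230 to 131 bases before the start: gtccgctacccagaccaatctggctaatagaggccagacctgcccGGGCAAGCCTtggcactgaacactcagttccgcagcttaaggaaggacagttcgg

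Cdkn1a was the only one of the 10 genes with 2 exact decamers in a window, from 73 to 64 and from 51 to 42 bases before its upstream start. The window before its downstream start held none. In the printed stretch the 10 bases directly after the decamer nearer the start differ from the pattern in 1 letter. They were therefore not marked, and the 2 marked decamers need not be the pair that p53 binds. At least 1 decamer was present in 7.13% of all 32851 windows of the table, at least 2 in 0.259%, and a pair with at most 13 bases between in 0.0639%. No decamer was found in the windows of Cdkn1b, Cdkn2a, Cdkn2b, Btg2, Bbc3 or Gdf15, which says only that these letters are not in the bases searched. A match is a description of sequence and not a site of binding.

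Levels are FPKM, fragment counts scaled by the authors for transcript length and library depth, so they can be compared between genes. The steps between low FPKM values put the depth at about 17400000 to 22900000 fragments per sample. The diets were compared by limma, a linear model fitted here across all genes on log2(FPKM + 1), with Benjamini-Hochberg adjustment over the 15431 genes that averaged at least 0.5 FPKM. A gene is said to have risen or fallen where the adjusted p was under 0.05. Of these genes 36.5% changed, 29.7% upward and 6.84% downward. The median of all genes tested lay 0.25 higher on the log2 scale in the adenine group. Median-of-ratios scaling, which removes that shift, gave 32% changed, 16.8% upward and 15.2% downward, so the direction of small changes depends on it. Both values are given below for the genes of the list of 10, and for other named genes the call after scaling is given.

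On the adenine-enriched diet 5 of the 9 genes tested rose: Trp53, Cdkn1a, Bbc3, Gdf15 and Btg2. The share is 55.6%, against 29.7% of all genes tested, and the same 5 genes rose after median-of-ratios scaling, against 16.8%. Since the list was chosen with earlier results of these data known, these shares are a description and no test. Mdm2 and Ccng1, both standard p53 targets, and the kinase inhibitor genes Cdkn1b and Cdkn2b did not pass the test. After scaling Ccng1 fell. None of the 9 fell on deposited FPKM in limma, at an unadjusted p under 0.05 either. Cdkn2a was below the filter. In the 5 genes that rose all adenine samples lay above all standard samples, which was so for 44.4% of all genes tested, and in the other 4 tested the groups overlapped. The plot of FPKM by gene and diet shows every value.

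**Figure D1:**
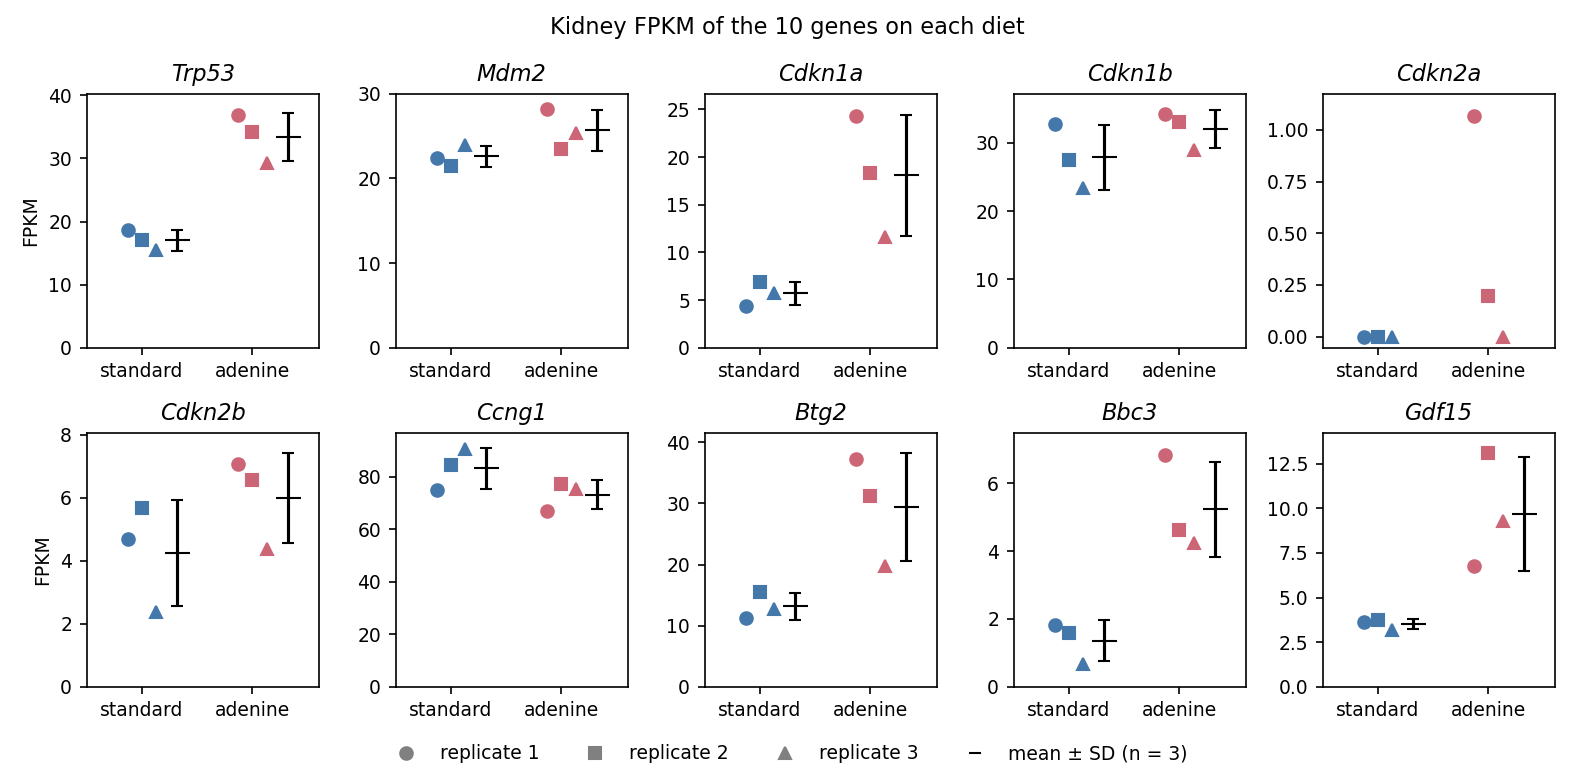
FPKM of the 10 genes (vertical axes, each on its own linear scale) in kidneys on the standard (blue) and adenine-enriched (red) diet; symbols are the 3 samples of a diet, bars are mean ± SD, left out for Cdkn2a. Groups are apart for Trp53, Cdkn1a, Btg2, Bbc3 and Gdf15 and overlap for Mdm2, Cdkn1b, Cdkn2b and Ccng1.

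Trp53 (chromosome 11, 69580359 to 69591873, GRCm38, as for all positions below) was at 18.7, 17.0 and 15.4 FPKM on the standard diet, against 36.8, 34.2 and 29.3 FPKM with adenine. The lowest adenine value was well above the highest standard value, and that gap was wider than the range within either diet. The mean went from 17.0 ± 1.63 to 33.4 ± 3.85 FPKM (SD, n = 3 per diet), a 1.96-fold difference. The log2 change was 0.93 (SE 0.118, limma adjusted p = 0.00521) and 0.64 after median-of-ratios scaling (adjusted p = 0.00751). No single library decided it, as the limma adjusted p without each sample in turn ran from 0.00328 to 0.0335.

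Mdm2, the ligase that marks p53 for destruction (chromosome 10, 117688888 to 117710758), was at 22.4, 21.4 and 23.9 FPKM on the standard diet, against 28.3, 23.5 and 25.4 FPKM with adenine. Adenine 2 lay below standard 3, so the groups overlapped. The log2 change was 0.18 with a 95% interval of -0.058 to 0.41 (limma adjusted p = 0.192), and it turned to -0.11 after scaling, with an interval of -0.36 to 0.14. The log2 change of Trp53 on the same scale lies outside each interval.

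Cdkn1a encodes p21, which binds cyclin-dependent kinases and PCNA (chromosome 17, 29090979 to 29100722). It was at 4.42, 6.85 and 5.79 FPKM on the standard diet, against 24.3, 18.3 and 11.6 FPKM with adenine. The adenine samples were spread over a wide range, with adenine 3 at the bottom. The mean went from 5.69 ± 1.22 to 18.1 ± 6.32 FPKM, a 3.18-fold difference and a log2 change of 1.47 (SE 0.271, limma adjusted p = 0.011, at most 0.0485 with any 1 library left out). On deposited FPKM this was the largest log2 change among the 9 genes tested, while after scaling that of Bbc3 was marginally larger, and 5.56% of all genes tested had a larger rise. The change was 1.20 after scaling (adjusted p = 0.0152). An antisense transcript on the minus strand, AC167363.2, shares 273 of the 3553 exon bases of Cdkn1a, and reads of the pair cannot be told apart without strand.

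The other inhibitor genes of cyclin-dependent kinases did not pass the test. Cdkn1b, whose product p27 holds resting cells out of the cycle (chromosome 6, 134920401 to 134925513), was at 32.8, 27.5 and 23.4 FPKM on the standard diet, against 34.3, 33.0 and 28.9 FPKM with adenine. The log2 change was 0.20 with a 95% interval of -0.13 to 0.54 (limma adjusted p = 0.276), and it turned to -0.087 after scaling. Cdkn2b, which encodes p15, an inhibitor of CDK4 and CDK6 (chromosome 4, 89306289 to 89311032), was at 4.69, 5.66 and 2.38 FPKM on the standard diet, against 7.07, 6.56 and 4.36 FPKM with adenine. Its log2 change was 0.45, with an interval from -0.25 to 1.15 that leaves room for a rise of more than 1 on the log2 scale (limma adjusted p = 0.252), and it was 0.20 after scaling and -0.019 with quantile normalization.

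Cdkn2a (chromosome 4, 89274471 to 89294653), next to Cdkn2b, encodes p16 and, from another first exon, p19ARF, and values per gene do not separate these transcripts. It was listed at 0 in standard 1, 2 and 3, at 1.07 and 0.199 FPKM in adenine 1 and 2 and at 0 in adenine 3. Over the 1172 exon bases annotated for the gene, 3 fragments come to about 0.135 FPKM in adenine 1 and 2, and to 0.153 to 0.177 FPKM in the other samples. The value in adenine 2 is thus that of a few fragments, and only adenine 1 is well above such a level. With no filter on low values, limma gave a log2 change of 0.44 (adjusted p = 0.274 over 22768 genes). The 3 adenine samples differed widely, and the gene did not pass.

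Ccng1, a well-known p53 target in mouse tissues, encodes cyclin G1 (chromosome 11, 40748552 to 40755311). It was at 74.8, 84.3 and 90.4 FPKM on the standard diet, against 66.9, 77.3 and 75.2 FPKM with adenine. Standard 2 and 3 lay above all adenine samples and standard 1 lay within their range, so the groups overlapped. The log2 change was -0.18 with a 95% interval of -0.43 to 0.070 (limma adjusted p = 0.208), and -0.48 after median-of-ratios scaling, where the gene fell (adjusted p = 0.0424). In neither fit did the interval reach a rise of 0.1.

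Btg2, an antiproliferative gene that p53 and growth signals both raise (chromosome 1, 134075170 to 134079120), was at 11.2, 15.6 and 12.7 FPKM on the standard diet, against 37.2, 31.2 and 19.8 FPKM with adenine. As with Cdkn1a, adenine 1 was highest and adenine 3 lowest. The mean went from 13.2 ± 2.20 to 29.4 ± 8.87 FPKM, a 2.23-fold difference and a log2 change of 1.07 (limma adjusted p = 0.0182, 0.0317 after scaling). The call was lost without standard 1, standard 3 or adenine 2 (limma adjusted p = 0.0649, 0.0613 and 0.0699).

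Bbc3 encodes PUMA, a BH3-only protein that triggers apoptosis (chromosome 7, 16309616 to 16318205). It was at 1.82, 1.59 and 0.666 FPKM on the standard diet, against 6.83, 4.62 and 4.24 FPKM with adenine. All levels were low, yet the lowest adenine value was above 2 times the highest standard value. The mean went from 1.36 ± 0.611 to 5.23 ± 1.40 FPKM, a 3.85-fold difference, the largest fold of the 9 genes tested. The log2 change was 1.42 (limma adjusted p = 0.0106) and 1.21 after scaling (adjusted p = 0.014).

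Gdf15, a secreted stress cytokine of the TGF-beta family that p53 and the integrated stress response both raise (chromosome 8, 70629393 to 70632456), was at 3.60, 3.72 and 3.19 FPKM on the standard diet, against 6.74, 13.1 and 9.28 FPKM with adenine. Adenine 1 was the lowest of its group here, where it was the highest for Cdkn1a, Btg2, Bbc3 and Trp53. The mean went from 3.50 ± 0.275 to 9.70 ± 3.19 FPKM, a 2.77-fold difference and a log2 change of 1.21 (limma adjusted p = 0.0109). It was 0.96 after median-of-ratios scaling (adjusted p = 0.0252), and the call was lost with quantile normalization (adjusted p = 0.0828).

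**Figure D2:**
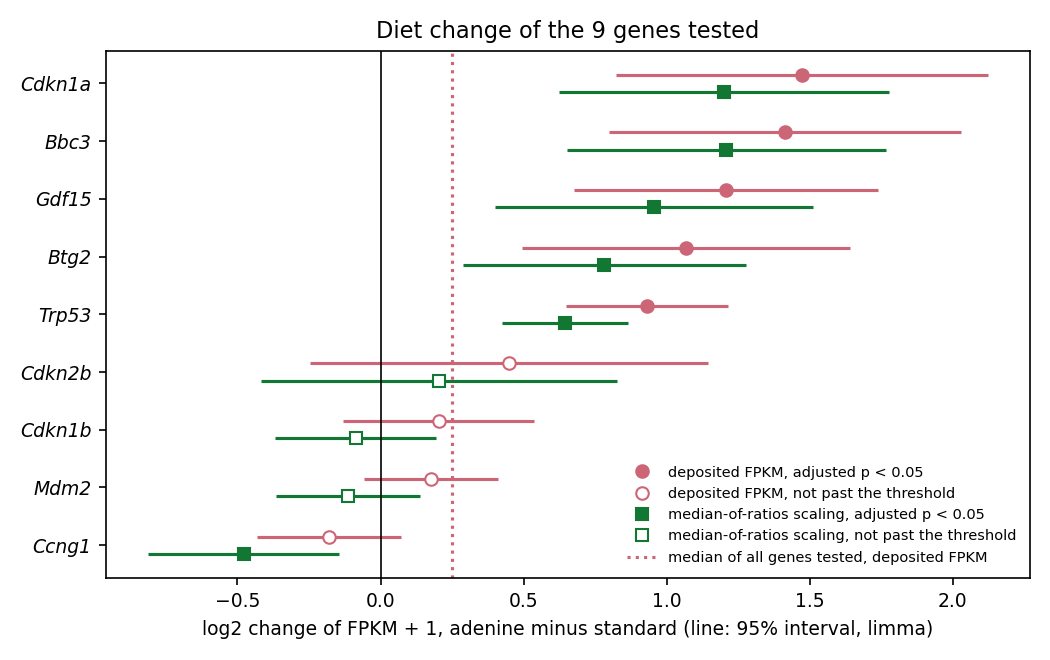
Log2 change on the adenine-enriched diet (horizontal axis, FPKM + 1, adenine minus standard) of the 9 genes tested, with 95% intervals from limma, on deposited FPKM (red circles) and after median-of-ratios scaling (green squares); filled marks passed adjusted p = 0.05 and the dotted line is the median of all genes tested, 0.25. Cdkn1a, Bbc3, Gdf15, Btg2 and Trp53 are filled on both scales, and Ccng1 only after scaling.

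In the 4 tested genes whose groups overlapped, the pairs of equally numbered samples differed in one direction. On deposited FPKM Mdm2, Cdkn1b and Cdkn2b were higher with adenine in 3 of 3 pairs and Ccng1 was lower in 3 of 3. The share of all genes tested with 3 of 3 pairs in one direction was not counted. On the same scale the median of all genes tested lay 0.25 higher with adenine, and the pairing is itself taken from these data. With the replicate number as a block none of these 4 passed (limma adjusted p = 0.179, 0.131, 0.063 and 0.137), and the direction of Mdm2 and Cdkn1b turns after median-of-ratios scaling.

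The order of the levels changed between the diets. On the standard diet mean FPKM ran from Ccng1 (83.2) through Cdkn1b (27.9), Mdm2 (22.6), Trp53 (17.0), Btg2 (13.2), Cdkn1a (5.69), Cdkn2b (4.25) and Gdf15 (3.50) to Bbc3 (1.36). In that order Cdkn1b and Mdm2, Trp53 and Btg2, Cdkn1a and Cdkn2b, and Cdkn2b and Gdf15 overlapped in their sample values. On the adenine-enriched diet Ccng1 remained on top at 73.1 FPKM, and Trp53 (33.4), Cdkn1b (32.1), Btg2 (29.4), Mdm2 (25.7), Cdkn1a (18.1), Gdf15 (9.70), Cdkn2b (6.00) and Bbc3 (5.23) followed. Each of these 8 overlapped with its neighbour in that order, while Ccng1 stood clear of Trp53. Trp53 stood below Mdm2 on the standard diet with no overlap, and above it on the adenine-enriched diet with no overlap.

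Ratios of 2 genes within a library do not depend on its scaling. The Mdm2:Trp53 ratio was 1.20, 1.26 and 1.55 on the standard diet and 0.767, 0.686 and 0.868 with adenine. The length-scaled transcript level of Mdm2 was thus above that of Trp53 in every standard sample and below it in every adenine sample. Protein was not measured. Ccng1:Trp53 went from 4.94 ± 0.929 to 2.22 ± 0.378, with no overlap (n = 3 per diet). Cdkn1a:Mdm2 was 0.197, 0.320 and 0.242 on the standard diet and 0.859, 0.781 and 0.458 with adenine, and Cdkn1a:Cdkn1b went from 0.211 ± 0.0657 to 0.556 ± 0.153. Bbc3:Trp53 went from 0.0781 ± 0.0303 to 0.155 ± 0.0267. These 5 ratios did not overlap between the diets.

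For Cdkn1a:Trp53, Btg2:Trp53 and Gdf15:Trp53 the diets overlapped, although Cdkn1a:Trp53 was higher with adenine in each of the 3 pairs of equally numbered samples, at 0.659 against 0.237, 0.536 against 0.403 and 0.398 against 0.375. Of 8 ratios compared, 5 gave p = 0.1 in a two-sided exact permutation test, the smallest p that 3 against 3 samples allow, and 0.16 after Benjamini-Hochberg adjustment of these exact values over the 8. The permutations did not use the pairing. The other 3 gave exact p = 0.2 for Cdkn1a:Trp53, 0.6 for Btg2:Trp53 and 0.4 for Gdf15:Trp53.

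**Figure D3:**
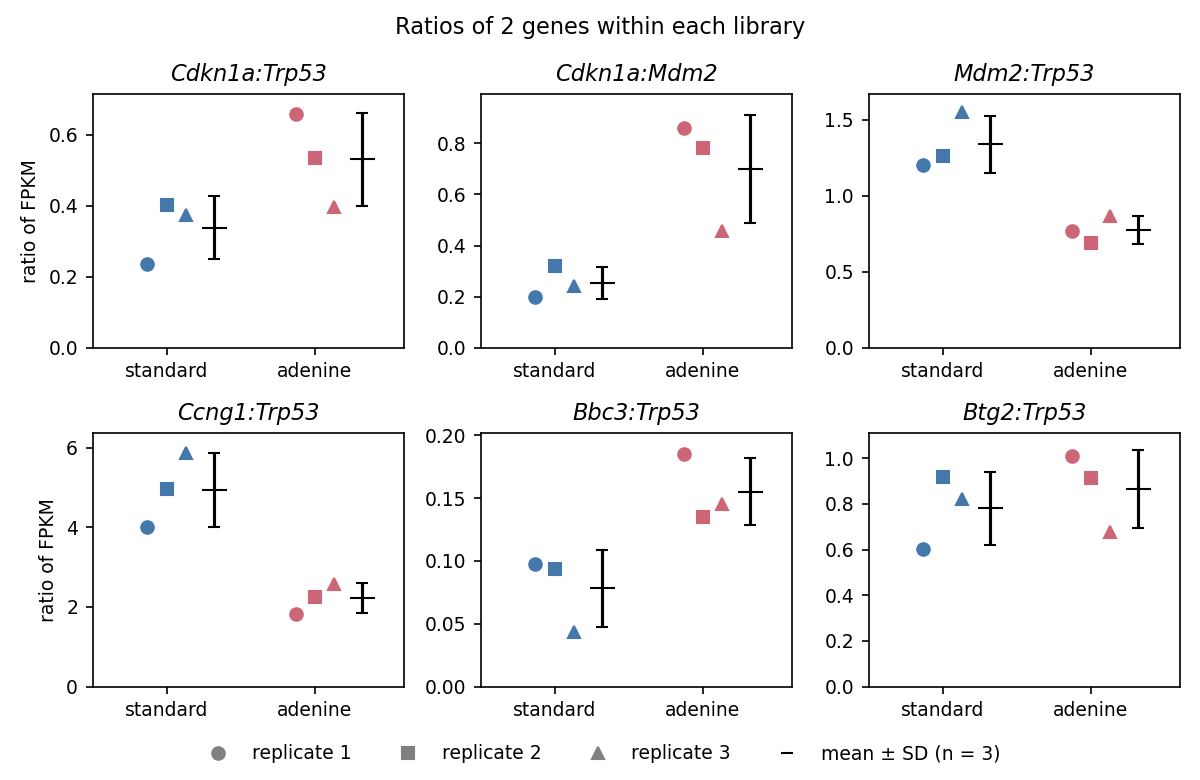
Ratio of the FPKM of 2 genes within each library (vertical axes from 0) on the standard (blue) and adenine-enriched (red) diet; symbols are samples and bars mean ± SD of 3. Mdm2:Trp53 and Ccng1:Trp53 lie lower on the adenine-enriched diet with no overlap, Cdkn1a:Mdm2 and Bbc3:Trp53 lie higher, and Cdkn1a:Trp53 and Btg2:Trp53 overlap.

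Beyond Mdm2, Cdkn1a, Ccng1, Btg2, Bbc3 and Gdf15, 26 further known p53 targets were read. Of these 11 rose and none fell in limma (17 and 0 at an unadjusted p under 0.05), a share of 42.3% against 29.7% of all genes tested, with a median log2 change of 0.47 against 0.25. After median-of-ratios scaling 5 rose, a share of 19.2% against 16.8%, and Ei24 and Rrm2b fell, so on that scale the share of rises was near that of all genes. The 11 rises numbered 6, 6 and 8 when standard 1, 2 or 3 was left out, and 7, 4 and 13 when adenine 1, 2 or 3 was. The plot of changes in further p53 targets shows each gene.

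The largest rise in the list on the log2 scale was that of Sfn, which encodes the epithelial checkpoint protein 14-3-3 sigma. It was at 5.09, 5.75 and 4.10 FPKM on the standard diet, against 23.5, 23.5 and 18.0 FPKM with adenine, a log2 change of 1.92 (limma adjusted p = 0.00323). Phlda3, which encodes an inhibitor of AKT, was at 2.52, 2.53 and 1.30 FPKM on the standard diet, against 11.01, 8.65 and 7.99 FPKM with adenine, a log2 change of 1.73 (limma adjusted p = 0.00508). Both groups of samples were far apart in these 2 genes, and both rose after scaling (limma adjusted p = 0.00279 and 0.00574). The other 3 that also rose after scaling were Apaf1, the scaffold of the apoptosome, Tnfrsf10b, a death receptor, and Sesn2, a stress-induced inhibitor of mTORC1 (limma adjusted p = 0.0222, 0.0164 and 0.0238 on that scale).

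**Figure D4:**
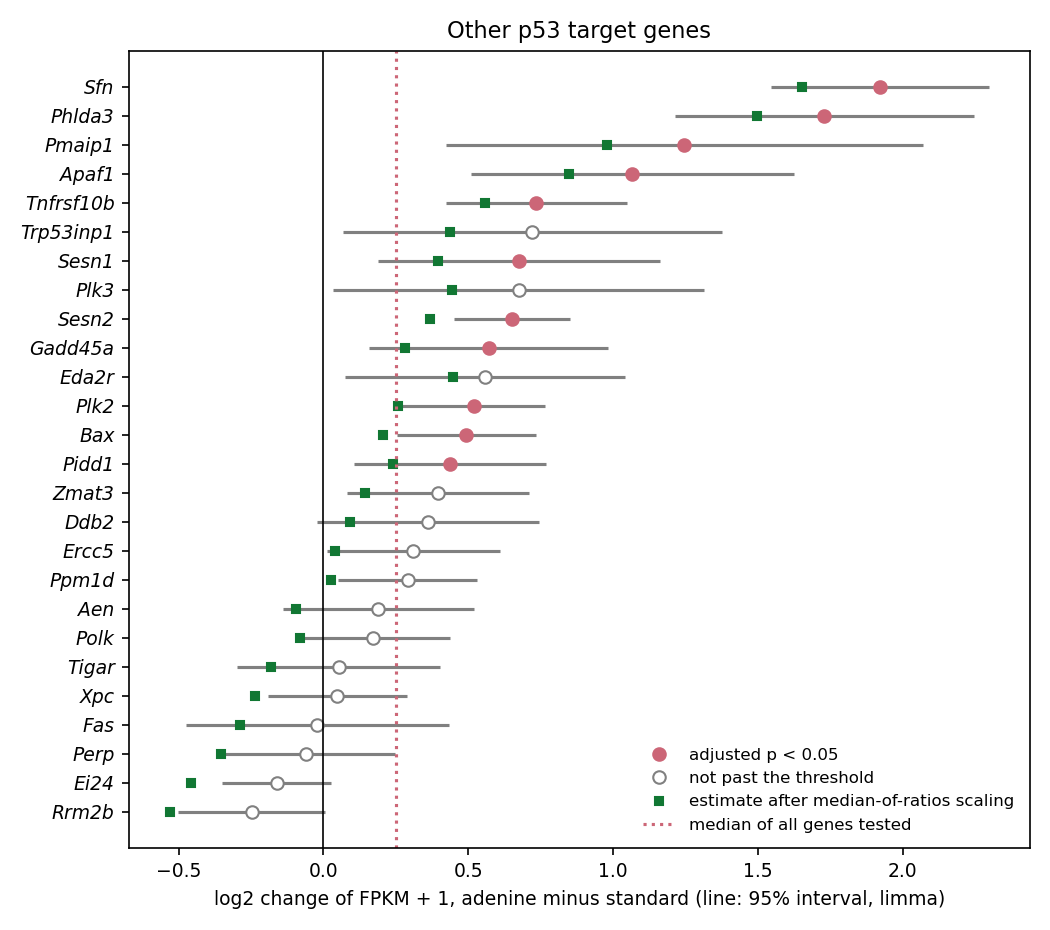
Log2 change on the adenine-enriched diet (horizontal axis, FPKM + 1, adenine minus standard) of 26 further p53 targets with 95% limma intervals; filled circles passed adjusted p = 0.05 on deposited FPKM, green squares are estimates after median-of-ratios scaling and the dotted line is the median of all genes tested. Sfn and Phlda3 lead at 1.92 and 1.73, and 15 genes did not pass.

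Among 14 tested relatives and regulators of p53, 5 rose and none fell, a share of 35.7% against 29.7% of all genes tested, with a median log2 change of 0.37 (7 and 0 at an unadjusted limma p under 0.05). The largest rises on the log2 scale were those of Chek1, a checkpoint kinase of replicating cells, and Mdm4, an inhibitor of p53 related to Mdm2. Chek1 was at 0.850, 0.605 and 0.804 FPKM on the standard diet, against 2.57, 2.01 and 1.62 FPKM with adenine, a log2 change of 0.80 (limma adjusted p = 0.0147). Mdm4 was at 29.6, 29.0 and 22.9 FPKM on the standard diet, against 42.9, 43.1 and 38.7 FPKM with adenine, a log2 change of 0.60 (limma adjusted p = 0.013); after scaling it was no longer called (adjusted p = 0.0517). In contrast to Mdm2, the Mdm4 groups did not overlap. After scaling 1 of the 14 rose, Chek1, and 1 fell, Rchy1, a share of rises of 7.14% against 16.8%. The 5 rises numbered 3, 1 and 3 when standard 1, 2 or 3 was left out, and 2, 0 and 5 when adenine 1, 2 or 3 was. Chek1 was lost without standard 2 or adenine 2 (limma adjusted p = 0.0522 and 0.0555) and Mdm4 without adenine 2 (0.057). Trp73 was below the filter.

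Of 6 further kinase inhibitor and pocket protein genes, Cdkn1c rose, a share of 16.7% against 29.7% of all genes tested, and none fell in limma, at an unadjusted p under 0.05 either. Cdkn1c encodes p57, the third member of the p21 and p27 family. It was at 9.65, 8.76 and 7.57 FPKM on the standard diet, against 20.7, 13.03 and 14.2 FPKM with adenine, a log2 change of 0.79 (limma adjusted p = 0.0206, 0.0458 after scaling). The call was lost without standard 1, 2 or 3 (limma adjusted p = 0.0515, 0.0629 and 0.0701) and with quantile normalization (adjusted p = 0.0806), while with the replicate number as a block 3 of the 6 genes rose.

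Most of the listed kinases that these inhibitors hold, and of the genes of division, rose beside Cdkn1a. Of 12 cyclin, cyclin-dependent kinase and E2F genes 9 rose and none fell in limma, 7 after scaling, shares of 75% and 58.3% against 29.7% and 16.8% of all genes tested, with a median log2 change of 0.91 (10 and 0 at an unadjusted p under 0.05). Cdk1, the kinase of mitosis, was at 1.19, 3.01 and 3.95 FPKM on the standard diet, against 23.3, 18.1 and 6.23 FPKM with adenine, and Ccna2, which encodes cyclin A2, rose 5.01-fold (limma adjusted p = 0.0231 and 0.00994). Both were also called after scaling. Of 15 genes of DNA replication and mitosis 14 rose and none fell, 12 after scaling, shares of 93.3% and 80%, with a median log2 change of 1.23 (15 and 0 at an unadjusted limma p under 0.05). On log2(FPKM + 1) the largest rises were those of Top2a, the topoisomerase of dividing cells, and Mki67, the source of the Ki-67 antigen, at 2.16 and 1.79 (limma adjusted p = 0.00762 and 0.00817), and both were called after scaling too. The 9 cyclin and kinase rises numbered 5, 6 and 5 when standard 1, 2 or 3 was left out, and 7, 5 and 10 when adenine 1, 2 or 3 was. The 14 numbered 7 with any standard sample left out, and 12, 6 and 15 when adenine 1, 2 or 3 was. Cdk1 itself was lost without standard 1, standard 2, adenine 1 or adenine 2 (limma adjusted p = 0.0729, 0.0627, 0.0639 and 0.0827).

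Relatives of Btg2, Ccng1 and Bbc3 were mixed. Of 7 BTG, TOB, GADD45 and cyclin G relatives 3 rose and none fell, with 2 rising and 2 falling after scaling, shares of rises of 42.9% and 28.6% against 29.7% and 16.8% of all genes tested, and a median log2 change of 0.27 (3 and 1 at an unadjusted limma p under 0.05). Gadd45b and Btg1 led with log2 changes of 1.14 and 0.72 (limma adjusted p = 0.0239 and 0.0187), and both were called after scaling. Of 11 tested BCL2 family genes 5 rose and 1 fell, 2 and 1 after scaling, with a median log2 change of 0.34. The share of rises was 45.5% against 29.7% of all genes tested, and after scaling 18.2% against 16.8%, near that of all genes. The BH3-only gene Bmf rose 2.93-fold and the pore-forming gene Bak1 rose 2.08-fold, each in all 3 adenine samples (limma adjusted p = 0.0476 and 0.0227). Bmf was not called after scaling (limma adjusted p = 0.0736), and its lowest adenine value, 11.8 FPKM, was close to the highest standard value, 11.6 FPKM, whereas Bak1 was called on both scales. Bid, which links death receptors to mitochondria, fell from a mean of 24.9 ± 4.35 FPKM to one of 17.7 ± 1.33 (SD, n = 3; limma adjusted p = 0.0419, and 0.0517 with the replicate number as a block), and was called after scaling. Leaving out a library ended most of these calls: the 3 relatives that rose numbered 1, 1 and 0 when standard 1, 2 or 3 was left out, and 1, 0 and 3 when adenine 1, 2 or 3 was. The 5 BCL2 rises numbered 2, 1 and 1 when standard 1, 2 or 3 was left out, and 2, 1 and 5 when adenine 1, 2 or 3 was, and the fall of Bid was lost whichever of the 6 samples was left out.

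Of 11 tested genes named in the senescence literature, 8 rose and 2 fell, 6 and 2 after scaling, with a median log2 change of 1.64. The shares of rises were 72.7% and 54.5%, against 29.7% and 16.8% of all genes tested. They count rises whichever way senescence moves a gene, Lmnb1 below among them, so they do not measure senescence. The matrix protease Mmp3 and the chemokine Cxcl1 rose most, by 3.31 and 2.81 on the log2 scale (limma adjusted p = 0.00361 and 0.00419). Igfbp3 and Glb1, the lysosomal galactosidase behind the senescence stain, fell by 0.84 and 0.54 (limma adjusted p = 0.0223 and 0.0451), Glb1 not with the replicate number as a block (0.0653). Lmnb1, which encodes lamin B1, known to be lost in senescent cells, rose from 2.70 ± 0.508 to 10.9 ± 4.06 FPKM (limma adjusted p = 0.00802). These 5 genes were also called after scaling. The 2 falls were lost with any standard sample or adenine 2 left out, and Glb1 alone without adenine 1.

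Programmes that share Gdf15 and Btg2 with p53 were also read. Of 8 integrated stress response genes 2 rose and none fell, Atf3 by 2.08 and Asns by 0.72 on the log2 scale (limma adjusted p = 0.00395 and 0.0496), and 1 rose after scaling (4 and 0 at an unadjusted limma p under 0.05). The shares of rises, 25% and 12.5% after scaling, lay below the 29.7% and 16.8% of all genes tested, and the median log2 change was 0.34. After scaling Atf3 was called and Asns was not (limma adjusted p = 0.109). Asns was lost when any library other than adenine 3 was left out, and the 2 rises numbered 1, 1 and 2 without standard 1, 2 or 3 and 1, 1 and 4 without adenine 1, 2 or 3. Of 10 tested immediate early genes, a class to which Btg2 is often counted, 9 rose and none fell in limma, at an unadjusted p under 0.05 either, led by Egr2 and Junb at log2 changes of 2.36 and 2.28 (limma adjusted p = 0.00556 and 0.00375), and after scaling 9 rose, these 2 included, and Dusp1 fell. The share of rises was 90% on both scales, with a median log2 change of 1.48. The plot of shares by list sets these counts beside those of all genes.

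**Figure D5:**
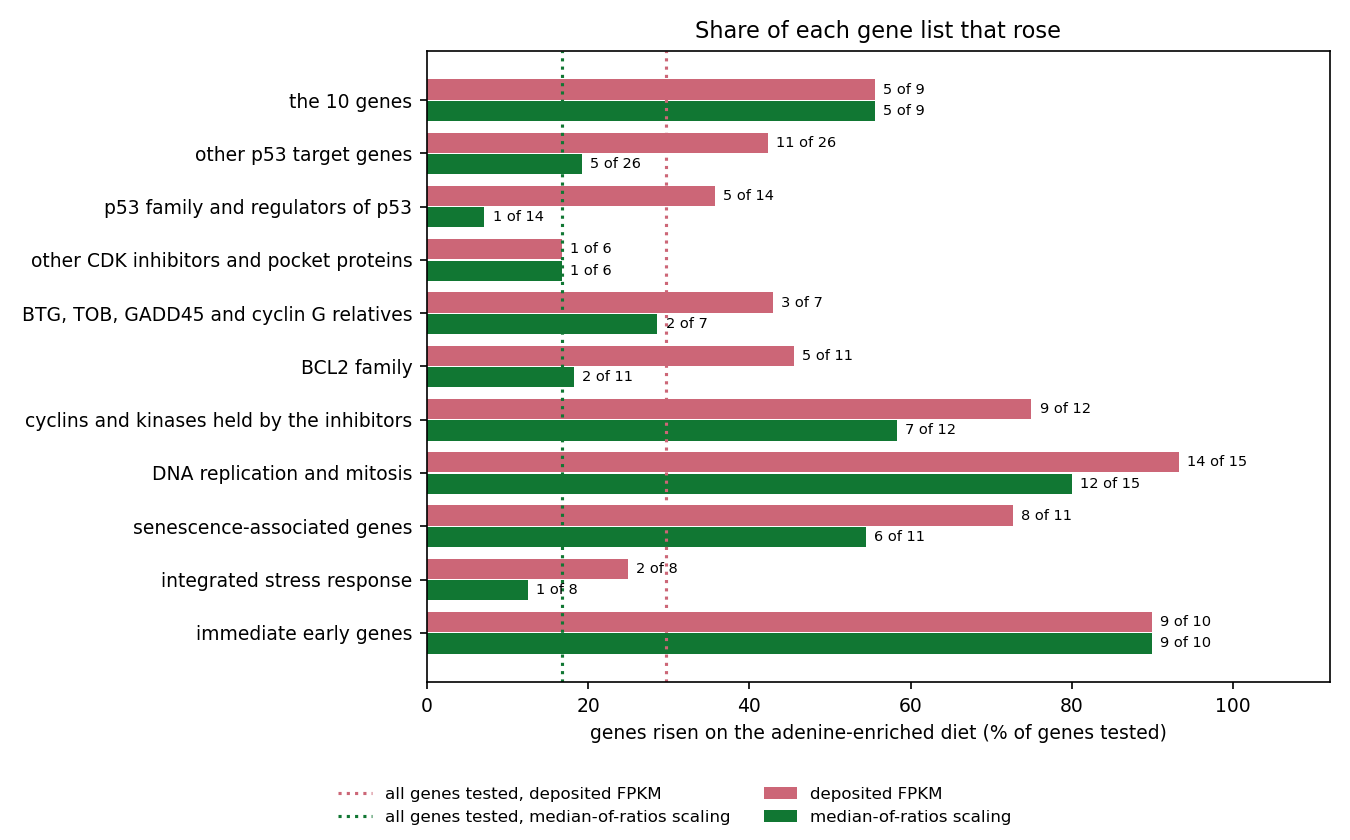
Share of tested genes that rose on the adenine-enriched diet (horizontal axis, %) in the 10 genes and in each of 10 pathway lists, cell type markers not shown, on deposited FPKM (red) and after median-of-ratios scaling (green), with counts beside the bars; dotted lines are the shares of all genes tested, 29.7% and 16.8%. DNA replication and mitosis and immediate early genes have the highest shares of those plotted, 14 of 15 and 9 of 10, and further p53 targets are near the line after scaling.

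The kidneys on the 2 diets also differed in markers of cell types, and in bulk tissue fewer cells of a type and less RNA per cell cannot be told apart. Of all genes tested 29.7% rose and 6.84% fell, and after scaling 16.8% and 15.2%. All 8 macrophage markers rose on both scales. Their summed level was 75.8 to 82.5 FPKM in the standard samples and 739, 480.0 and 341 FPKM in adenine 1 to 3. All 6 fibroblast markers rose, and 5 did after scaling. The summed levels of the 6 were 70.5 to 105 FPKM in the standard samples, against 1096, 942 and 555 FPKM in adenine 1 to 3. This order of the adenine samples is also that of Trp53, Cdkn1a, Btg2 and Bbc3, but not of Gdf15. The summed genes of DNA replication and mitosis had it too, at 217, 159 and 123 FPKM in adenine 1 to 3. The share of all genes tested with this order was not counted. Of 6 T cell markers 5 rose, and 3 did after scaling. On deposited FPKM 1 rose when any standard sample was left out, and 2 when adenine 2 was. The summed levels of the 6 were 5.94 to 9.98 FPKM in the standard samples, against 80.5, 26.5 and 25.4 FPKM in adenine 1 to 3. None of 4 B cell markers passed the test in limma (0 at an unadjusted p under 0.05), and adenine 1 stood apart at a summed 52.1 FPKM against 3.83 and 3.57 FPKM in adenine 2 and 3. Neither of 2 neutrophil markers tested passed in limma (both at an unadjusted p under 0.05, and both adjusted without standard 3 or adenine 3). The defining neutrophil genes Elane, Ly6g and Mpo were below the filter. Elane was listed at 0 in every sample. Ly6g read 0.127 FPKM for adenine 1, 0.0609 FPKM for adenine 2 and 0 for the rest. Mpo went the other way, with 0.115 FPKM for standard 1, 0.339 FPKM for standard 3 and 0 for the rest. Of 6 proximal tubule markers 5 fell, and 5 did after scaling. The summed levels of the 6 were 1368 to 1963 FPKM in the standard samples, against 477, 773 and 1129 FPKM in adenine 1 to 3. The 5 falls on deposited FPKM numbered 2, 1 and 1 when standard 1, 2 or 3 was left out, and 2 and 1 when adenine 1 or 2 was. Of 5 distal nephron markers 1 fell and 0 rose, on both scales. The summed levels of these 5 were 3346 to 3641 FPKM in the standard samples, against 3504, 4167 and 4280 FPKM in adenine 1 to 3. The distal fall was lost without standard 1, standard 2, adenine 1 or adenine 2. No endothelial marker of 5 passed (1 up and 1 down at an unadjusted limma p under 0.05), while 3 fell after scaling. The part of these cell types in the changes of Trp53, Cdkn1a, Btg2, Bbc3 and Gdf15 was not tested. Without adenine 1 these 5 genes rose, as did all 8 macrophage markers.

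By likeness over the 6 samples, the genes averaging at least 5 FPKM that followed Cdkn1a most closely were Trim35, 1600012H06Rik and Prdm4, each with Pearson r = 0.999 on log2(FPKM + 1). Among 10476 genes compared, 1499 had r over 0.95 with Cdkn1a, 12 with Mdm2 and 60 with Gdf15. Closest to Gdf15 were Hsf1, Sec31a and Srsf10, at r = 0.996, 0.99 and 0.985, and closest to Mdm2 were Igkv2-109, Tnrc6b and Rpl7a, at r = 0.997, 0.994 and 0.987. The samples share the diets and the libraries, so these values are a description and carry no test.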

How the data were processed

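RNA of 6 whole-kidney samples, 3 per diet, was sequenced; libraries were made from 1 μg of total RNA with random hexamers, per the labels' protocols. Base calls went through bcl2fastq 2.0, and Cufflinks 2.1.1 and TopHat (no version given) were run against mm10 or GRCm38, per the submitters' processing notes; annotation and strand setting are not stated there. What the authors deposited is an FPKM table covering the 6 samples, without counts. The table of young and old kidneys was not used, since its 6 columns match no listed sample.

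Depth was estimated from low FPKM values, of which 68.3% to 74.8% at 1 to 3 steps lay within 0.15 of whole fragments (transcripts over 2000 bp, a nominal fragment of 200 bp); this is too few for a count test, and intervals would cover counting error only. The diets were compared with limma 3.58.1 in R 4.3.3 (two-sided, variance trend, pseudocount 1, mean of at least 0.5 FPKM), and the code was tested on simulated data. Log2 changes on this scale understate those of low genes; folds are ratios of mean FPKM. The 10 genes and the 18 gene lists (179 entries with the 10 genes, all in the table, 2 of them under older symbols) were chosen with earlier results of these data known. Named genes are the 10 and, per list, up to 2 largest rises and 2 largest falls. Lmnb1, Apaf1, Tnfrsf10b, Sesn2, Ei24, Rrm2b, Rchy1, Dusp1, Trp73, Ly6g, Elane and Mpo were named after their values were seen. Samples with equal numbers deviated together from their diet means, with r = 0.257, 0.143 and 0.181, against -0.187 to 0.0376 for unequal numbers. Deviations from a diet mean cancel over its samples, so these r values depend on each other. The numbers were taken to pair the samples where pairs or a block are named, and the main fit did not use them. No label states this pairing. Sequences are from RefSeq, and exons from GENCODE M21. Alternatives covered the pseudocount, filter, scaling, variance prior, block and omission of each sample.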

Additional observations from a re-analysis of the deposited data

How the results depend on the processing

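The 5637 changed genes numbered 2794, 2866 and 2752 when standard 1, 2 or 3 was left out, and 3635, 2053 and 7078 when adenine 1, 2 or 3 was, while the 5 changed genes among the 10 ran from 4 to 5. With the replicate number as a block 5 of the 10 changed, and the block alone changed no call among them; with the block and median-of-ratios scaling together 6 did, Ccng1 falling (limma adjusted p = 0.0204). At a mean of at least 5 FPKM 4 were called, since Bbc3 is then not tested. Among genes that did not pass, direction turned for Mdm2 with median-of-ratios scaling (log2 -0.11, with or without the block) and quantile normalization (-0.059), for Cdkn1b with median-of-ratios scaling (-0.087, with or without the block) and for Cdkn2b with quantile normalization (-0.019); the shift between the diets that these scalings remove exceeds those changes of Mdm2 and Cdkn1b. The Btg2:Trp53 log2 difference, 0.15, ran from -0.024 without standard 1 to 0.32 without adenine 3; the cause was not tested. List counts moved by over 1.5 times elsewhere too. With quantile normalization rises fell to 4 of 26 further p53 targets, 1 of 14 regulators, 1 of 11 BCL2 family genes and 1 of 7 Btg2 relatives, from 11, 5, 5 and 3. With no filter they were 7, 3, 2 and 2, and with a mean of at least 5 FPKM 9 of the 14 replication rises, 5 of the 9 cyclin and kinase rises and 2 of the 5 regulator rises were counted. Among named genes the block alone ended the calls of Bid and Glb1 and no other. Values of a few fragments, such as that of Cdkn2a in adenine 2, are limited by depth.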
